A study of Drosophila melanogaster with 24 samples.

Results

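The genes described here are 89 of the 14042 genes on the array that were under a set level in w1118 embryos until 3 h after egg-laying and then rose late. A gene was taken when the mean of its 3 w1118 samples reached at least 10 at 4.5 to 6 h, lay at least 1 above that of 3 to 4.5 h, and was under 9.5 at both 0 to 1.5 and 1.5 to 3 h. All values are log2 array signals normalized by the authors, on which a difference of 1 is a 2-fold change. Collections of whole embryos were taken, of age 0 to 1.5 h, then 1.5 to 3 h, then 3 to 4.5 h and last 4.5 to 6 h, with 3 samples of each genotype at each age and 24 in all. The mutant embryos came from females that carried the missense allele bratfs1, which alters the NHL domain of Brain tumor (BRAT) and impairs RNA binding, over the deficiency Df(2L)TE37C-7. These females were mated to their brothers, which were mostly bratfs1/CyO or Df(2L)TE37C-7/CyO, so that the embryos themselves differed in brat genotype, and the collections did not hatch. Embryos of w1118 flies were the control. The strains may also differ at other loci, and this cannot be told apart from the loss of maternal BRAT. Each sample is a collection of many embryos, so fewer expressing cells and less RNA per cell cannot be told apart.

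An early fly embryo runs on mRNAs that the mother placed in the egg. In the maternal-to-zygotic transition these mRNAs are removed and the embryo's own genome is switched on, first in a small wave of patterning genes and then in a large wave. Genes of the later wave serve tissues as they are laid down, among them neuroblasts, visceral mesoderm, tracheal placodes and epithelia. BRAT binds RNA and represses or destabilizes many of the maternal mRNAs.

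In w1118 embryos the median level of the 89 genes was 8.29, 8.66, 9.18 and 10.97 at the 4 times, a description of what the rule chose. The median of all genes lay between 8.45 and 8.59 over the same times, so the 89 genes started at a level ordinary for the array. The last step in w1118 ranged from 1.00 to 2.52 with a median of 1.51. The name of late genes first on at 4.5 to 6 h held for only some of them. At 3 to 4.5 h, 53 genes were still under 9.5 and 36 were already at or above it. Near the limits of the rule, CG12885 (10.02) and CG32026 (10.03) were just inside the level of 10, and CG4330 (9.99) and CG14629 (9.98) just outside. The smallest rises inside belonged to Tep4 (TepIV on the array, 1.00) and drl (1.01), and the nearest genes outside were inaD (0.98) and CG14291 (0.98). At 0 to 1.5 h mtm (9.49) and mthl5 (9.43) were the nearest below 9.5, while pgant6 (9.93) and CG12096 (9.99) failed. mtm and mthl5 fell to 7.90 and 8.56 at 1.5 to 3 h before they rose. At 1.5 to 3 h the corresponding genes were Obp99a (9.33) and saturn (CG32141, 9.31) inside, and klu (9.52) and CG13705 (9.57) outside. Of the 89, 86 were found in RefSeq, where 19 carried another symbol, and 73 were measured by 1 transcript and 16 by several. CG10621 and Bhmt (CG10623) were the only members within 3 genes of another member, with no gene between them.

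In brat mutant embryos the median of the same genes climbed in more even steps. The late step of w1118, against which this is read, was required by the rule. The mutant median was 8.69, 9.39, 10.01 and 10.76, and none of these values entered the rule. Not every gene rose, and 3 of the 89 had a lower mutant mean at 4.5 to 6 h than at 0 to 1.5 h. At or above 9.5 were 12, 42, 59 and 78 of the 89 genes in the 4 collections, in order of age. Of all 8274 genes that were under 9.5 in w1118 at both early times, 1.06%, 2.82%, 4.91% and 5.95% reached 9.5 in the mutant at the 4 times. Medians of the 89 genes in single samples ran from 8.66 to 8.72 in the youngest collection, then from 9.24 to 9.79, from 9.83 to 10.30 and, in the oldest, from 10.69 to 10.82. In w1118 samples they ran from 8.28 to 8.34, 8.58 to 8.68, 9.23 to 9.38 and 10.73 to 11.10. The mutant samples lay above every w1118 sample at the first 3 times and overlapped with them at the last. The w1118 samples in this comparison are those that chose the genes.

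**Figure D1:**
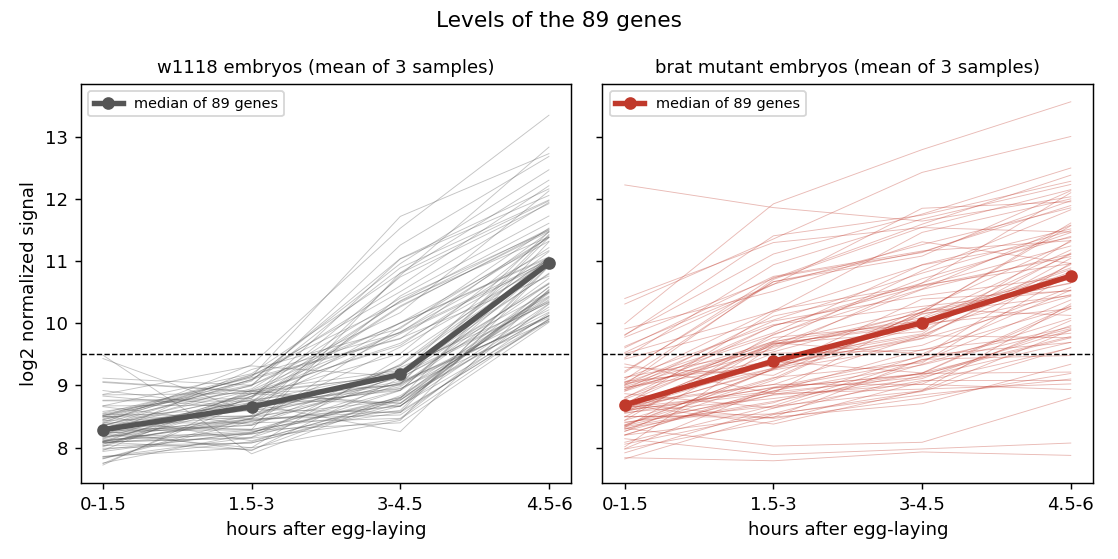
Mean log2 normalized signal of each of the 89 genes (thin lines, 3 samples per point) and their median (thick line) over the 4 collection times in hours after egg-laying, for w1118 and brat mutant embryos, with 9.5 as a dashed line. In w1118 the median went from 9.18 to 10.97 in the last step, and in the mutant it climbed through 8.69, 9.39, 10.01 and 10.76.

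The time course of the mutant could be tested, since no mutant sample chose the genes. In the first step, between the 2 youngest collections, 28 of the 89 genes rose and 0 fell at a false discovery rate (FDR) under 5% in limma, with Benjamini-Hochberg adjustment over all genes. Of all 14042 genes, 4.43% rose and 7.69% fell in this step. In the second step, up to 3 to 4.5 h, 5 rose and 0 fell, against 1.03% and 2.03% of all genes. Those were lin-28, Oatp58Dc, unc-5, Vdup1 (CG7047) and CG8468. In the last step, which defined the genes in w1118, 0 of the 89 rose or fell in the mutant, against 0.0% of all genes higher and 0.0356% lower, although 83 of 89 were higher at 4.5 to 6 h and 49 had an unadjusted p under 0.05. At that level 609 of all 14042 genes were higher. Over the whole course 75 of the 89 rose and 0 fell, against 9.16% and 11.7% of all genes. Median changes over the 3 steps were 0.73, 0.48 and 0.63 in the mutant and 0.33, 0.69 and 1.51 in w1118. The first count fell to 11, 15 and 17 without mutant replicate 3, 1 and 2, and the second to 0 without replicate 1 or 2. Scaling to the ribosomal protein genes moved the median of all genes in the first step from 0.02 to -0.25 and the count of members from 28 to 15. With this scaling the calls over all genes in that step went from 622 higher and 1080 lower to 362 and 1836.

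The rule was next applied to the mutant means. It was met by 31 genes, which is 0.221% of the array, and 11 of them were among the 89. These were sens and meru (CG32150), which act in sensory organ precursors, lmd and cas, the Iroquois gene caup, the cadherin gene Cad99C, cn, Tps1, CG18088, CG5399 and CG7763. Of the 89 genes, 65 reached 10 in the mutant at 4.5 to 6 h, 47 were under 9.5 at both early times, and only 19 rose by at least 1 in the last step. The largest last steps in the mutant were those of meru (1.51), lmd (1.50), Oatp58Dc (1.45), cn (1.44) and spdo (1.44). The smallest were those of Spn43Aa (-0.35), mthl5 (-0.11), HLH54F (-0.08), CG9184 (-0.07) and CG12885 (-0.06). None of these 10 steps passed the test.

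Because w1118 values chose the genes, a comparison of the genotypes on the same samples is open to that choice, and the counts that follow are not evidence on the group as a whole. The choice favours low w1118 values early and high ones at 4.5 to 6 h. For a description free of it, the genes were chosen anew on 2 w1118 replicates and the mutant was set against the third. Without replicate 1, 2 and 3 this gave 92, 107 and 107 genes. The median difference of mutant minus w1118 was 0.40, 0.38 and 0.37 in the youngest collection. It was 0.73, 0.77 and 0.71 from 1.5 to 3 h, and 0.42, 0.56 and 0.24 from 3 to 4.5 h. At 4.5 to 6 h it was -0.28, 0.11 and -0.25, so its sign rested on which w1118 replicate was left for the comparison. At every time w1118 replicate 2 and mutant replicates 1 and 3 carried Cy3, and the other samples Cy5. Dye and replicate therefore cannot be told apart here. The median over all genes stayed between -0.03 and -0.01 in all 12 of these comparisons. The last step in the replicate left out had a median of 1.48, 1.15 and 1.21, and the mutant's last step over the same genes had a median of 0.56, 0.64 and 0.68.

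**Figure D2:**
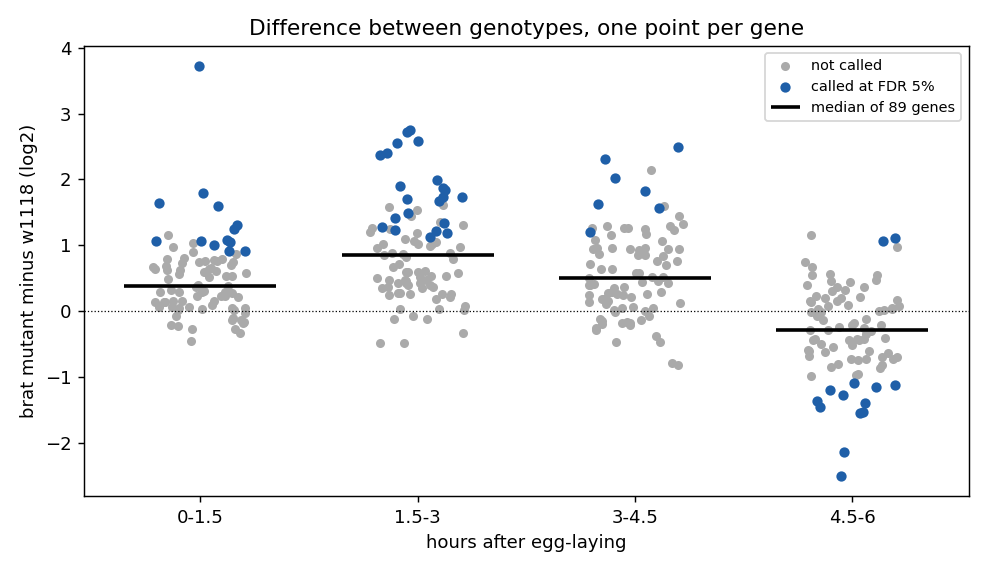
Mutant minus w1118 difference (log2) of each of the 89 genes at each collection time in hours after egg-laying, with genes called at FDR 5% in blue and the median as a bar. Medians were 0.38, 0.86, 0.51 and -0.29, and drl stands highest at 0 to 1.5 h (3.72) and Clk lowest at 4.5 to 6 h (-2.50).

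At 0 to 1.5 h 13 of the 89 genes were higher and 0 lower in mutant embryos (limma, FDR 5%), and 1.46% of all genes were higher and 0.904% lower. The counts at 1.5 to 3 h were 22 and 0, against 1.18% and 0.89% of all genes. For 3 to 4.5 h they were 7 and 0, against 0.584% and 0.37%. In all, 27 genes were higher at 1 or more of these times, and CG9184, cora and SP71 at all 3. In 1 fit of all 24 samples the 3 counts of higher members were 9, 38 and 22, and with dye as a covariate in that fit 5, 35 and 19. The counts also depended on single samples. The first was 4 without mutant replicate 1, 7 without mutant replicate 3, 5 without w1118 replicate 2 and 6 without w1118 replicate 3. The second was 8 without mutant replicate 3, 13 without mutant replicate 1, and 11, 11 and 12 without w1118 replicate 1, 2 and 3. The third was 0 without mutant replicate 1, 1 without mutant replicate 3 or any w1118 replicate, and 13 without mutant replicate 2. For each call below, the number of the 6 fits without 1 sample that kept it is given.

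The largest of these differences was that of drl, the Ryk-type receptor that guides axons away from a Wnt signal. drl was at 12.52, 11.99 and 12.17 in the mutant samples of 0 to 1.5 h and at 8.27, 8.78 and 8.46 in w1118. The difference was 3.72 ± 0.22 (SE, n = 3 each, limma adjusted p = 2.6e-06), and the call held in 6 of 6 fits. In the next collection it was 2.72 ± 0.22 (limma adjusted p = 0.00028, 6 of 6 fits). In the mutant drl hardly moved over the course, with means of 12.23, 11.86, 11.65 and 12.03, none of whose steps passed the test. In w1118 it climbed from 8.51 to 12.73, and at 4.5 to 6 h all 3 mutant samples (12.06, 11.97 and 12.07) lay below all 3 w1118 samples (12.72, 12.78 and 12.68). That last difference of -0.69 ± 0.18 did not pass (limma adjusted p = 0.0713). In the order of protein-coding genes drl lies close to brat, with 5 genes between them. CG10621, Bhmt and Tep4 follow at 45, 44 and 51 genes from brat, so that 4 of the 89 genes (4.49%) have at most 60 genes between themselves and brat, as have 0.776% of all genes on the array. This was looked up after their values were seen. The chromosomes carrying bratfs1 and the deficiency cannot be told apart from the loss of BRAT for these 4 genes.

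Among the other genes of the nervous system, Fas2, nerfin-1 and ct were higher in the mutant at 0 to 1.5 h. Fas2, an adhesion molecule of axons, was at 9.60, 9.41 and 9.32 in the mutant at 0 to 1.5 h and at 7.98, 8.47 and 8.71 in w1118 (difference 1.06 ± 0.22, limma adjusted p = 0.0253, 2 of 6 fits). At 1.5 to 3 h its mutant samples were at 10.57, 10.76 and 11.50 and its w1118 samples at 9.06, 9.31 and 8.85, a difference of 1.87 ± 0.27 (limma adjusted p = 0.00771, 6 of 6 fits). By 4.5 to 6 h the difference was 0.07 ± 0.22 and the samples overlapped. All 3 transcripts of Fas2 were higher in the mutant at the first 3 times, by 0.67 to 1.40 at 0 to 1.5 h. nerfin-1, a zinc-finger regulator of newborn neurons, was at 10.25, 9.41 and 9.66 in the mutant at 0 to 1.5 h against 8.73, 8.45 and 8.20 (1.31 ± 0.24, limma adjusted p = 0.0123, 3 of 6 fits). Its w1118 samples of 1.5 to 3 h were spread, with an SD of 1.20, and the difference of 1.58 ± 0.47 there did not pass. ct, a homeobox gene of external sense organs, was at 9.60, 9.26 and 9.42 in the mutant at 0 to 1.5 h against 8.63, 8.72 and 8.20 (0.91 ± 0.21, limma adjusted p = 0.041, 1 of 6 fits). Its 3 transcripts disagreed, with differences of 0.84, 1.89 and 0.00.

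Of the remaining neuroblast and sense organ genes, ato alone was called between genotypes, and at 4.5 to 6 h only. wor, a Snail-type factor of neuroblasts, was at 10.34, 8.80 and 10.34 in the mutant at 1.5 to 3 h and at 8.31, 8.79 and 7.78 in w1118, with a difference of 1.53 ± 0.41 that did not pass (limma adjusted p = 0.085). At 4.5 to 6 h wor lay lower in every mutant sample, at 11.43, 11.78 and 11.53 against 12.52, 12.20 and 12.19 (-0.72 ± 0.20, limma adjusted p = 0.0858). The same held for spdo, which acts with Notch in asymmetric divisions, at 11.84, 11.32 and 11.68 against 12.32, 12.41 and 12.67 (-0.86 ± 0.22, limma adjusted p = 0.0583). In the mutant alone, the first step of wor (1.39 ± 0.37, limma adjusted p = 0.0192) and of spdo (0.97 ± 0.30, limma adjusted p = 0.0494) rose, and each call held in 1 of the 3 fits without 1 mutant replicate. ato, the proneural gene of chordotonal organs, stood at 10.45, 10.31 and 10.04 in the mutant and at 11.04, 11.52 and 11.85 in w1118 in the oldest collection (-1.20 ± 0.24, limma adjusted p = 0.0226), and the call held in 1 of 6 fits. The Snail-type gene scrt (-0.63), the neuroblast timing gene cas (-0.21), the Olig-type gene Oli (-0.99) and the Netrin receptor gene unc-5 (-0.51) did not pass at that time. Of 14 genes grouped by role as nervous system and sense organs, 4, 2 and 0 were higher in the 3 younger collections and 1 was lower in the oldest. Among all 89 genes 14.6%, 24.7% and 7.87% were higher at those times and 13.5% lower in the oldest. Over all genes on the array 1.46%, 1.18% and 0.584% were higher and 1.44% lower. Nothing is read from the counts by role.

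Epithelial genes were led by cora, which codes for a FERM-domain protein of the septate junction. cora was higher in the mutant at every time. At 3 to 4.5 h it was at 11.25, 10.99 and 11.55 in the mutant and at 9.51, 9.20 and 9.03 in w1118. Its differences over the 4 times were 1.05 ± 0.20, 1.71 ± 0.26, 2.02 ± 0.24 and 1.07 ± 0.19, with limma adjusted p of 0.0156, 0.0105, 0.00819 and 0.012. These calls held in 3, 5, 5 and 5 of 6 fits. Each of its 4 transcripts was higher in the mutant at each time, by 0.54 to 2.56. The ligand gene Wnt4 was called at 1.5 to 3 h only, at 11.04, 10.02 and 11.15 against 9.28, 9.16 and 8.59 (1.73 ± 0.32, limma adjusted p = 0.0208, 2 of 6 fits). By 3 to 4.5 h Wnt4 had reached 11.02, 10.76 and 10.90 in w1118 and overlapped with the mutant. trh, the bHLH-PAS gene of the tracheal placodes, caup and dp, the gene of a giant apical matrix protein, were not called between genotypes at any time. In the mutant each of the 3 rose over the whole course, by 1.85, 1.88 and 2.27. All 8 genes grouped as ectoderm, trachea and epithelia rose over the whole course in the mutant, as did 84.3% of the 89 genes and 9.16% of all genes.

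Several of the members with the highest levels code for transporters, enzymes or small binding proteins. Obp99a, of the odorant-binding protein family, had the highest w1118 level at 4.5 to 6 h, with samples at 13.34, 13.10 and 13.61. In the youngest collection it was at 9.72, 9.47 and 10.79 in the mutant and at 8.73, 7.90 and 8.56 in w1118. In the next, mutant samples were at 11.27, 11.82 and 12.67 and w1118 samples at 8.50, 10.40 and 9.11. The differences were 1.60 ± 0.32 and 2.59 ± 0.46 (limma adjusted p = 0.0202 and 0.019), and the calls held in 3 and 2 of 6 fits. Cln7 (CG8596), the fly homologue of a human lysosomal transporter gene, was at 10.67, 10.06 and 10.20 in the mutant at 0 to 1.5 h against 8.80, 8.13 and 8.62 (1.79 ± 0.24, limma adjusted p = 0.00114, 6 of 6 fits). In the second collection its difference was 2.37 ± 0.30 (limma adjusted p = 0.00431, 6 of 6 fits), and at 4.5 to 6 h it was 0.32 ± 0.21. Slc45-1 (CG4484), of a family of sugar transporters, was at 11.07, 10.48 and 11.80 in the mutant at 1.5 to 3 h and at 7.67, 8.83 and 8.61 in w1118, a difference of 2.75 ± 0.37 (limma adjusted p = 0.00555, 6 of 6 fits). It was still higher at 4.5 to 6 h, at 12.27, 12.67 and 12.56 against 11.12, 11.31 and 11.71 (1.11 ± 0.22, limma adjusted p = 0.0212, 2 of 6 fits). Slc45-1 and cora were the members called higher at that time. Galt (CG9232), an enzyme of galactose breakdown, was higher by 1.91 ± 0.30 at 1.5 to 3 h (limma adjusted p = 0.0113, 5 of 6 fits) and by 0.09 ± 0.21 at 4.5 to 6 h.

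**Figure D3:**
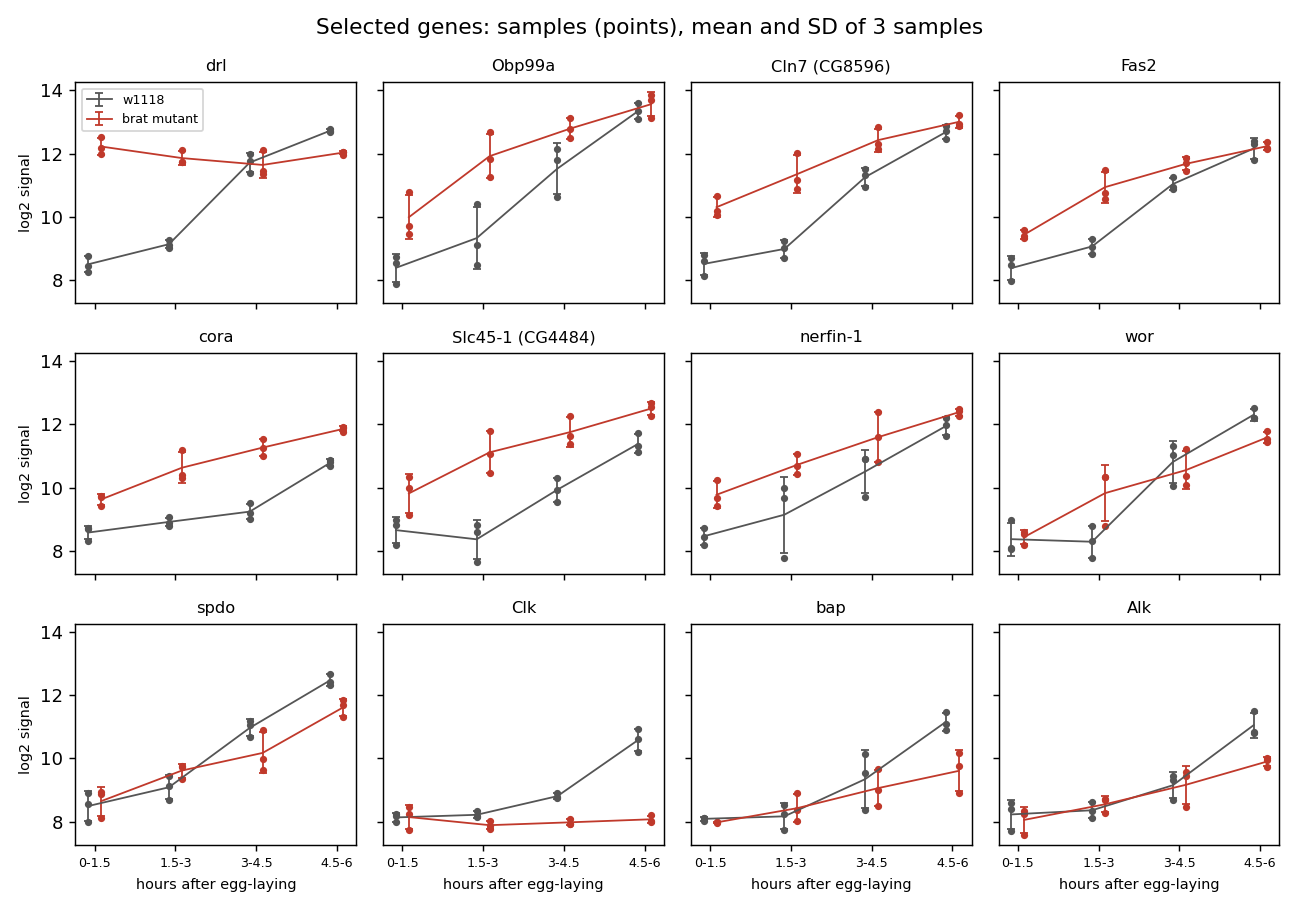
Log2 signal in each sample (points) with mean and SD of 3 samples (lines and bars) for 12 of the 89 genes over the collection times in hours after egg-laying, w1118 in grey and brat mutant in red. drl was near 12 in the mutant throughout, Obp99a, Cln7, Fas2, cora and Slc45-1 ran above w1118 at the early times, and Clk stayed near 8 in the mutant.

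Outside these roles, 7 of 48 genes were higher in the mutant at 0 to 1.5 h and 15 of 48 in the next collection. Among all 89 genes the shares were 14.6% and 24.7%, and over all genes on the array 1.46% and 1.18%. CG9184 was at 10.99, 10.75 and 12.15 in the mutant at 1.5 to 3 h and at 8.90, 8.17 and 9.17 in w1118 (2.55 ± 0.37, limma adjusted p = 0.00772, 6 of 6 fits). Its differences at 0 to 1.5 and 3 to 4.5 h were 1.65 ± 0.25 and 2.31 ± 0.35 (limma adjusted p = 0.00314 and 0.0279, 6 and 1 of 6 fits). SP71 had the largest difference at 3 to 4.5 h, with mutant samples at 11.75, 10.18 and 11.56 and w1118 samples at 8.83, 8.46 and 8.71 (2.50 ± 0.38, limma adjusted p = 0.0274, 1 of 6 fits). CG10621 was higher by 2.40 ± 0.31 at 1.5 to 3 h (limma adjusted p = 0.00431, 6 of 6 fits), while its neighbour Bhmt was at 8.96, 8.96 and 8.77 against 8.44, 8.44 and 8.62 and did not pass. ab, a BTB zinc-finger gene, was higher by 1.62 ± 0.25 at 3 to 4.5 h (limma adjusted p = 0.0279, 1 of 6 fits).

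At 4.5 to 6 h 12 of the 89 genes were lower in the mutant and 2 higher (limma, FDR 5%), while 1.44% of all genes were lower and 2.35% higher. High w1118 values at this time were part of the rule, so nothing is read from the count. Without mutant replicate 1 or 3 it was 7. In 28 genes every mutant sample lay below every w1118 sample, as in 12.7% of all genes. The genes called lower were Clk, CG12885, bap, Ugt35D1 (CG31002), Lip4 (CG6113), CG3097, Bhmt, Fuca, ato, Alk, HLH54F and mtm. Of the 53 genes still under 9.5 in w1118 at 3 to 4.5 h, 10 were among them, and of the other 36 genes 2. Those 36 held 15 of the 22 genes raised at 1.5 to 3 h. The split and the rule both used w1118 values, so nothing is read from these counts either.

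The largest of these differences was that of Clk, the bHLH-PAS activator of the circadian clock. Clk was at 8.20, 8.02 and 8.00 in the mutant and at 10.92, 10.21 and 10.61 in w1118, a difference of -2.50 ± 0.23 (limma adjusted p = 0.00024, 6 of 6 fits). Its 3 transcripts were lower by -2.09, -2.88 and -2.54. No rise of Clk passed the test in the mutant, where its means over the 4 times were 8.14, 7.89, 7.98 and 8.07. At 3 to 4.5 h it already lay lower in every mutant sample (8.09, 7.93 and 7.91 against 8.74, 8.91 and 8.77), although that difference did not pass (-0.83 ± 0.20, limma adjusted p = 0.0955). CG12885 also stayed low in the mutant (7.90, 8.21 and 7.52), but its w1118 samples were spread, at 10.41, 10.76 and 8.88 (-2.14 ± 0.42, limma adjusted p = 0.0187, 2 of 6 fits).

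Genes of the visceral mesoderm were among the lower ones. bap, the NK homeobox gene that specifies this tissue, was at 8.90, 10.17 and 9.74 in the mutant and at 11.46, 10.90 and 11.10 in w1118 (-1.55 ± 0.31, limma adjusted p = 0.0209, 2 of 6 fits). Alk, the receptor tyrosine kinase of its founder cells, was at 9.72, 9.95 and 10.01 against 11.50, 10.80 and 10.83 (-1.15 ± 0.24, limma adjusted p = 0.0237, 2 of 6 fits). HLH54F, a bHLH gene of the caudal visceral mesoderm, was at 8.89, 9.04 and 8.87 against 10.15, 9.94 and 10.08 (-1.12 ± 0.19, limma adjusted p = 0.00939, 6 of 6 fits). No change of HLH54F over the course passed the test in the mutant, with means of 8.71, 9.02, 9.02 and 8.93. bap and Alk rose there by 1.63 and 1.84 over the whole course. org-1, a T-box gene of visceral and somatic muscle, was at 9.21, 9.42 and 8.94 against 9.90, 9.62 and 10.95 and did not pass (-0.97 ± 0.32, limma adjusted p = 0.136). lmd, the Gli-type gene of fusion-competent myoblasts, stood apart from these. It was at 11.11, 11.24 and 11.65 in the mutant and at 10.95, 10.82 and 11.14 in w1118 at 4.5 to 6 h, which overlapped, and it was higher in the mutant at 1.5 to 3 h (1.21 ± 0.24, limma adjusted p = 0.0259, 1 of 6 fits). A wider list of 27 visceral and somatic mesoderm genes on the array holds bap, org-1, lmd and Alk. On it 3 were lower and 0 higher at 4.5 to 6 h, with a median difference of -0.03. Without members, 1 was lower.

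Enzymes made up the rest of the named lower genes. Ugt35D1, a UDP-glycosyltransferase, was at 10.07, 9.43 and 9.81 in the mutant and at 11.51, 11.08 and 11.34 in w1118 (-1.54 ± 0.23, limma adjusted p = 0.00451, 6 of 6 fits). The lipase gene Lip4 differed by -1.45 ± 0.26 (limma adjusted p = 0.0121, 6 of 6 fits) and the fucosidase gene Fuca by -1.27 ± 0.20 (limma adjusted p = 0.00657, 6 of 6 fits). Fuca had a mean of 8.80 ± 0.23 (SD) in the mutant and of 10.07 ± 0.09 in w1118, without overlap. Bhmt, a homocysteine methyltransferase, was at 9.97, 10.01 and 9.10 against 10.95, 11.16 and 11.08 (-1.37 ± 0.26, limma adjusted p = 0.0168, 4 of 6 fits), whereas its neighbour CG10621 was at 12.22, 11.89 and 12.74 against 12.27, 12.03 and 12.09. CG3097 was lower by -1.39 ± 0.23 (limma adjusted p = 0.00864, 6 of 6 fits) after being higher by 1.19 ± 0.26 at 1.5 to 3 h (limma adjusted p = 0.0415, 1 of 6 fits). mtm, which codes for the phosphoinositide phosphatase myotubularin, differed by -1.10 ± 0.23 (limma adjusted p = 0.0266, 1 of 6 fits). Between genotypes 51 of the 89 genes (57.3%) were not called at any of the 4 times, as were 92.7% of all genes. In 14 genes (15.7%) the samples of the genotypes overlapped at all 4, as in 46.3% of all genes. Both counts include the w1118 samples that chose the members, and nothing is read from them.

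Genes of the same tissues were read from the same fit, in lists that include members. Shares over all genes at each time are those given above. In the list of 27 neuroblast and neural genes, which holds nerfin-1, cas, scrt and wor, 5 were higher and 0 lower at 0 to 1.5 h, and 2 were higher and 1 lower at 4.5 to 6 h. Without members, 4 were higher at 0 to 1.5 h. Of 28 axon guidance genes, 8 were higher and 0 lower in the youngest collection and 4 and 0 in the next, drl and Fas2 among them. Without members the counts of higher genes were 6 and 2. Of 17 septate junction genes, 5, 3, 2 and 4 were higher at the 4 times and 0 lower, cora among them each time. Without cora the counts were 4, 2, 1 and 3. Of 30 bHLH genes, 4 were higher and 0 lower at 0 to 1.5 h, and 1 was higher and 4 lower at 4.5 to 6 h, with ato and HLH54F among the lower. Without members, 2 bHLH genes were lower at that time. Of the 89 genes 1, mthl5, is on the list of mRNAs associated with BRAT (1.12%), as are 960 of the 14042 genes on the array when matched by symbol (6.84%). The study drew that list from transcripts expressed in embryos up to 3 h old, when the rule keeps the members low. Nothing is therefore read from this share. mthl5 was at 10.41, 10.73 and 9.24 in the mutant at 4.5 to 6 h and at 10.84, 10.09 and 10.98 in w1118, which overlapped.

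Markers of later development had higher group means in the mutant at all 4 times, with most calls at 4.5 to 6 h. Structural genes of differentiated muscle, 18 on the array and none a member, had a mean level of 8.96, 9.75, 10.30 and 10.63 in the mutant at the 4 times and 8.56, 9.11, 9.31 and 9.43 in w1118. At 4.5 to 6 h 16 of these 18 were at or above 9.5 in the mutant and 4 in w1118, and 9 were called higher. None was called at the first 3 times. The muscle myosin gene Mhc was at a mean of 10.81 against 8.89. The 20 markers of older embryos on the array, which share genes with the muscle list, had means of 8.64, 9.24, 9.60 and 9.74 in the mutant and 8.43, 8.71, 8.83 and 8.81 in w1118. Of these 20, 9 were at or above 9.5 in the mutant from 1.5 to 3 h on and 1 in w1118. The mutant mean was the higher one for 17 of the 20 at 4.5 to 6 h. Called higher were 0, 1, 1 and 8 of the 20 at the 4 times. Outside muscle, the chitin deacetylase gene serp was at 11.31 against 9.17, LCBP1 at 10.89 against 9.26, TwdlT at 9.21 against 8.64, y at 9.03 against 8.49 and syt at 8.77 against 8.04. The cuticle and neural markers Lcp1, Lcp2, Ddc, ple and brp stayed under 8.7 in both genotypes at every time. In single samples, muscle means ran from 10.48 to 10.84 in the mutant and from 9.30 to 9.64 in w1118 at 4.5 to 6 h. The 17 early zygotic marker genes had a mean of 9.76 in the mutant and 9.08 in w1118 at 0 to 1.5 h, and a lower mean in the mutant at 1.5 to 3 h, of 11.49 against 12.21. The 15 maternal mRNA markers were at 10.91 in the mutant and 10.26 in w1118 at 3 to 4.5 h. Hemocyte genes, 18 on the array with 1 a member, had means of 8.91, 9.27, 9.61 and 9.67 in the mutant. In w1118 their means were 8.74, 8.91, 9.44 and 9.70. For 12 glial genes the means were 8.92, 9.69, 10.10 and 10.23 in the mutant and 8.48, 9.12, 10.05 and 10.305 in w1118. The part of embryo age or of the maternal mRNAs in the differences of the 89 genes was not tested.

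**Figure D4:**
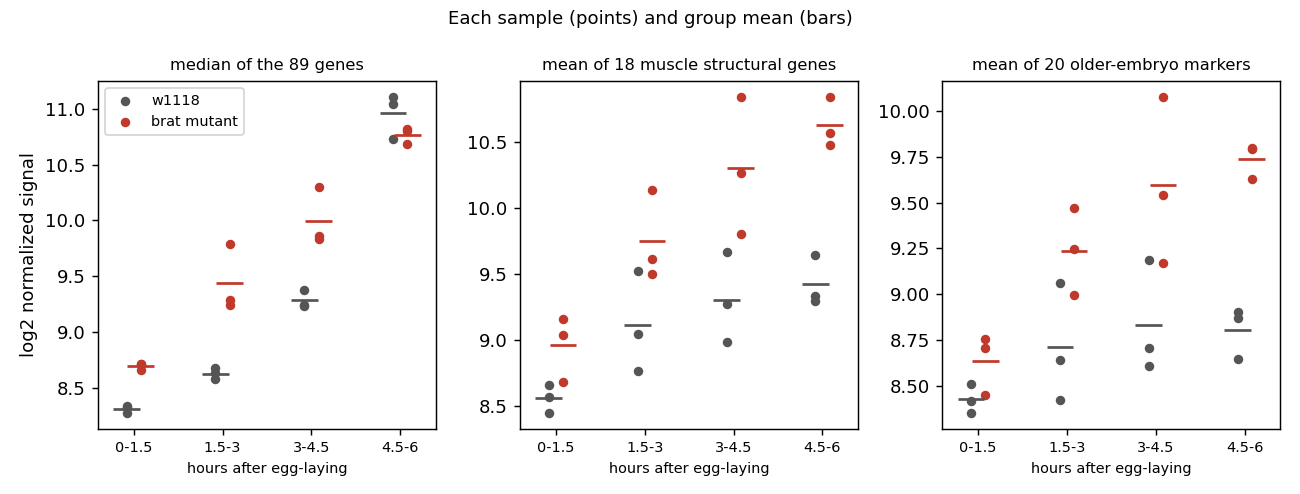
Log2 signal of each sample (points) and group mean (bars) over the collection times in hours after egg-laying, as the median of the 89 genes, the mean of 18 muscle structural genes and the mean of 20 older-embryo markers, each panel with its own vertical range. At 4.5 to 6 h the mutant stays at 9.63 or above in the older-embryo markers and w1118 at 8.90 or below, while the medians of the 89 genes overlap.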

How the data were processed

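Total RNA levels of 24 samples were measured on custom NimbleGen arrays. Per the labels and the study's methods, each array took 1 Cy3 and 1 Cy5 sample, and RMA normalization, with quantiles set equal over the whole series, was run in ArrayStar. The values deposited by the authors are log2 signals per transcript. The transcript release and genome build of the array were not given in the sources used here. Gene order came from RefSeq start positions, and no other coordinates were used. Of 17775 rows, 6 held no value. The other 17769 were averaged to 14042 genes by the symbol in the row name. No further scaling or filter was applied. Sample medians lay between 8.70 and 8.83, and replicates of a group correlated at 0.94 to 0.97 over genes. The number of arrays limits the precision.

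Genotypes were compared at each time (3 against 3), and times within the mutant in 1 fit of 12 samples, with limma 3.58.1 in R 4.3.3, FDR under 5% over all genes. limma, which shares the estimate of spread over genes, stood in for the authors' SAM, so the calls can differ from those of the study. The ± values are standard errors. The fits were tested on simulated data, in which they missed most log2 changes of 1 and found most of 2. A gene that was not called is not shown to be alike in the groups compared. The members and lists were chosen with earlier results of these data known. Named genes were members in a list, the 10 highest in w1118, the largest called differences at each time, the largest and smallest last steps in the mutant, and those nearest to a limit, while lin-28, Vdup1, ct and the 11 genes that meet the rule in both genotypes were named after their values were seen. Roles were assigned by hand after the members were known. Alternatives were other fits, filters, scalings, dye as a covariate, stricter rules and samples left out. Python 3.11.15 and matplotlib 3.10.9 made the figures.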

Additional observations from a re-analysis of the deposited data

Results flagged for a closer look

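In 10 named genes every mutant sample lay above every w1118 sample at an earlier time and below every w1118 sample at 4.5 to 6 h. The change of direction itself was not tested in any of them. The gap between the earlier and the last difference was widest for drl, at 4.41 (3.72 at 0 to 1.5 h and -0.69 at 4.5 to 6 h). At 1.5 to 3 h against 4.5 to 6 h it was 2.58 for CG3097, 2.26 for wor, 2.07 for mtm, 1.79 for Oatp58Dc, 1.77 for Bhmt (CG10623) and 1.70 for HLH54F. It was 1.78 for unc-5 (1.27 and -0.51) and 1.31 for CG8468 (1.10 and -0.21) over the same times. For trh the earlier time was 3 to 4.5 h and the gap 1.24. mtm first fell in both genotypes. By 1.5 to 3 h its mean had gone from 9.49 to 7.90 in w1118 and from 9.35 to 8.87 in the mutant. Of all 89 genes, 15 had this pattern (16.9%), as had 2.09% of all genes. Low early and high late w1118 values, which favour it, were part of the rule. Groups of 3 samples were too small for a test of single outlying samples.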

How the results depend on the processing

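Over 44 calls of named genes between genotypes, 205 of 220 values under other fits, scalings and the dye covariate kept the call and 15 lost it. With 1 sample left out, 154 of 264 kept it. 0 changed direction. The count of members higher in the mutant at 0 to 1.5 h was 9 in 1 fit of all 24 samples and 5 with dye as a covariate in that fit. At 1.5 to 3 h it was 38 in 1 fit of all 24 samples and 35 with dye in that fit. At 3 to 4.5 h it was 22 and 19 in those fits, 11 among expressed genes and 14 with each transcript by itself, and 1 member was lower in the first 3 of these. In the mutant's own course, the first step had 15 calls with ribosomal protein scaling, and the second had 9 in the fit of 24 samples, 12 among expressed genes and 9 with a replicate block. The last step had 7 in the fit of 24 samples, 7 among expressed genes and 1 each with ribosomal protein scaling, a replicate block or single transcripts. With levels of at least 11 and rises of at least 1.5 required, 0 genes met the rule in both genotypes, and the median difference was 0.60 in the youngest collection and 0.86 in the third. The dye covariate moved the first of these medians to 0.48.

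With 1 sample left out, members higher numbered 4 to 15, 8 to 15, 0 to 13 and 0 to 2 in the 4 collections in order of age, and members lower in the oldest numbered 7 to 10. The median at 0 to 1.5 h was 0.37 to 0.47. Calls in the mutant's first 2 steps were 11 to 17 and 0 to 6.

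Same-numbered samples of the genotypes deviated together with correlations of -0.06 to 0.10, so the numbers were not taken to pair samples of the genotypes. Within the mutant, same-numbered samples of adjacent times correlated at 0.01 to 0.13. Mutant samples of different number correlated at -0.11 to 0.03. The main fit of the mutant's course took no account of this. A replicate block ended 2 of the 44 calls (CG3097 at 1.5 to 3 h, 1.19, and Galt at 0 to 1.5 h, 1.00). Promoter motifs were not run, because no sequence was used here.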
